A study of Mus musculus with 6 samples.

Results

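Pbx2, Pbx3, Meis1, Meis2, Meis3 and Pknox1 are genes of the TALE class of homeobox transcription factors, which act as cofactors of Hox proteins. They were taken by symbol from the deposited gene table, where all 6 were present among 14366 listed genes. RNA-seq had been carried out on mesonephroi, dissected with their mesonephric tubule region, from male mouse embryos at embryonic day 16.5. The 3 control samples carried Osr2-Cre and a single floxed Gata2 allele beside an unfloxed one (Osr2Cre+;Gata2-flox/+). The 3 Gata2cKO samples carried Osr2-Cre with both Gata2 alleles floxed (Osr2Cre+;Gata2-flox/flox). Both groups therefore carried the recombinase, whose expression follows Osr2, a gene of the mesenchyme, so epithelial, endothelial and blood cells of the dissected tissue were not its intended target. The comparison addresses the part that mesenchymal Gata2 plays as the Wolffian duct develops, and the values below give the state of the TALE cofactor genes in that comparison. Whether the replicates are different embryos or litters is not said in the labels, so a p-value here speaks only to the spread among these samples, which may be technical.

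TALE proteins are named for an extension of 3 amino acids in the loop between the first and second helix of the homeodomain. PBX proteins bind DNA next to Hox proteins and sharpen their choice of sites. MEIS proteins and the protein of Pknox1, also called PREP1, bind PBX proteins and hold them in the nucleus, and MEIS proteins can also pair with Hox proteins of the posterior groups. In the embryonic urogenital system and in limbs MEIS and PBX genes are known mainly from mesenchyme.

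The coding stretch that marks the class is shown here for the 6 genes because it is the feature they share. Each stretch runs 5′ to 3′ on the coding strand from the codons of the loop extension to the codons for tryptophan and phenylalanine of the third helix, with the loop codons (proline, tyrosine, proline) in capitals.
Pbx2: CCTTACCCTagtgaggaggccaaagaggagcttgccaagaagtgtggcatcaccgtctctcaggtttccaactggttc
Pbx3: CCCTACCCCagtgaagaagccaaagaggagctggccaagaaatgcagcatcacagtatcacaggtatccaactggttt
Pknox1: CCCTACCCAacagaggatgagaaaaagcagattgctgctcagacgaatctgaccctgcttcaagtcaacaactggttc
Meis1: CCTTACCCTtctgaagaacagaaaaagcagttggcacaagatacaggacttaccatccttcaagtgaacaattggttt
Meis2: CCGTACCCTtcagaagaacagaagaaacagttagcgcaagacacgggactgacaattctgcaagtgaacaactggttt
Meis3: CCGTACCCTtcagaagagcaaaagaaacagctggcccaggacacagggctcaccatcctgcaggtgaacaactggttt
The sequences are from GENCODE release 21 for mouse (GRCm38), each 78 bases long and crossed by 1 intron in every gene. Meis1, Meis2 and Meis3 were identical to each other at 63 to 66 of the 78 bases, and Pbx2 and Pbx3 at 65. Pknox1 matched Meis1 and Meis2 at 53 bases and Meis3 at 50. Between the PBX and the MEIS genes 41 to 49 bases were identical. No window of 50 bases in any annotated transcript of one of the 6 genes occurred in a transcript of another, so that reads of at least this length could be told apart between them.

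The stretch lies on chromosome 17 at 34594655 to 34594815 (plus strand) in Pbx2 and at 31602789 to 31603190 (plus strand) in Pknox1. It lies on chromosome 2 at 34178328 to 34204842 (minus strand) in Pbx3 and at 115868800 to 115921745 (minus strand) in Meis2, on chromosome 11 at 18885648 to 18905762 (minus strand) in Meis1, and on chromosome 7 at 16183794 to 16184041 (plus strand) in Meis3. These are the coding exons and the intron between them. Other annotated genes overlap the exons of 3 of the 6 genes. In Meis1, 18.3% of the annotated exonic bases are shared with Gm37818 on the same strand and the antisense gene Gm16140. In Pbx2, 6.24% are shared with its upstream neighbour Gpsm3 on the same strand, and in Pknox1, 2.24% with an antisense gene. The sources used here do not give whether the library kit kept the strand, so reads from these shared bases cannot be told apart, and the levels of Meis1 and Pbx2 are uncertain to that extent.

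All 12 markers of mesenchyme and all 12 of duct epithelium that had been written down were listed, with none at 0 in every library. The deposited values are in TPM, in which transcript levels are corrected for gene length and for the library total, and the listed genes summed to between 997351 and 998844 TPM per library. Read depth is unknown. Control replicate 1 stood apart from the other controls on the second principal component (20.1 against -12.7 and -17.1). Mitochondrially encoded transcripts took 21.9% of its TPM, against 13.2% to 16.3% in the other 5 libraries. The listed erythroid markers summed to 18279 TPM in control replicate 1, against 6863 and 7811 TPM in controls 2 and 3. In Gata2cKO libraries they summed to 10519 to 13828 TPM, and 0 of the 6 tested passed the threshold by limma. Gata2 was at 384, 464 and 546 TPM across controls 1 to 3 and at 431, 530 and 416 TPM across Gata2cKO libraries 1 to 3, with overlapping groups. Loss of the floxed part cannot be read from a value for the whole gene, so the labels are not checked by it, and the directions below depend on them. Osr2 fell from 261 ± 54.1 to 127 ± 9.35 TPM (SD, n = 3 each), with a limma adjusted p of 0.0136, which was 0.0605 without Gata2cKO replicate 1 and 0.0604 without Gata2cKO replicate 3.

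Pbx2 was by far the most abundant of the 6 genes, and Pbx3 was near the floor. In controls the order by mean TPM was Pbx2, Meis3, Pknox1, Meis1, Meis2 and Pbx3. Within controls the ranges of Pknox1 and Meis1 overlapped, and the ranges of the other neighbours in that order did not. In Gata2cKO libraries the order was the same, and no neighbours overlapped. Pbx2 made up 76.3% ± 1.45 of the summed TPM of the 6 genes in controls and 78.3% ± 0.871 in Gata2cKO (SD, n = 3 each). Its control mean stood above 96.9% of the listed genes, and that of Pbx3 above 21.6%.

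**Figure D1:**
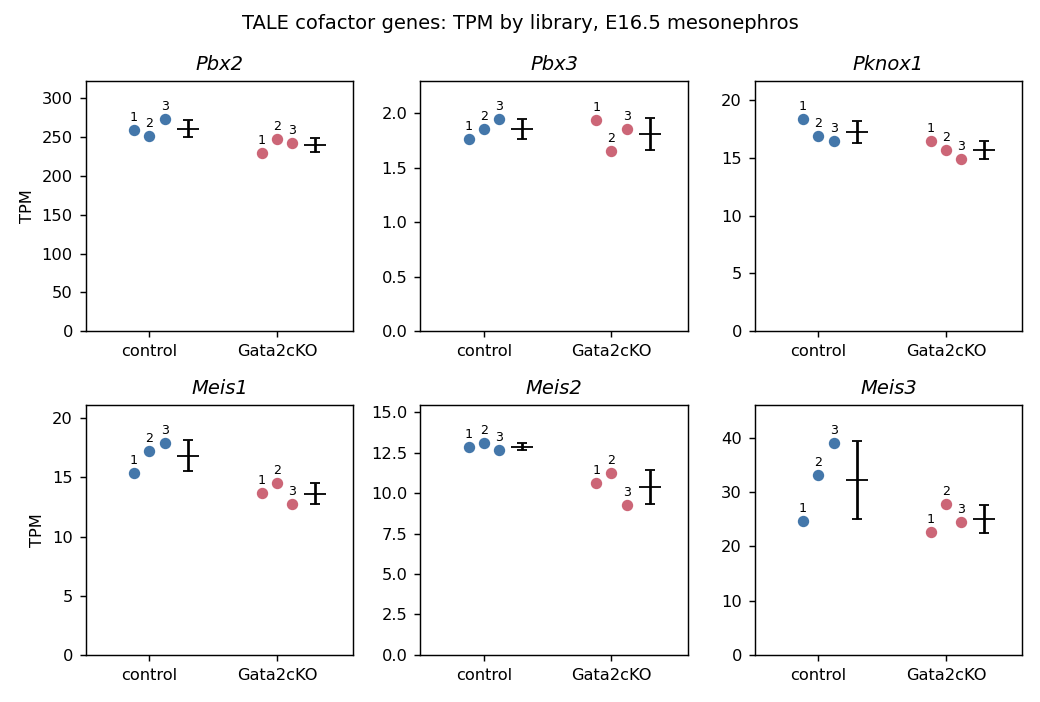
TPM of each of the 6 TALE cofactor genes (vertical axes, from 0, a scale per gene) in control (blue) and Gata2cKO (red) libraries, numbered by replicate, with the mean and SD of each group in black (n = 3 each). In Pbx2, Meis1 and Meis2 all red points lie below all blue points, and in Pbx3, Pknox1 and Meis3 the groups overlap.

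The MEIS genes showed the lowest ratios of Gata2cKO to control among the 6 members, but no member passed the threshold. All 6 had a negative log2 fold change (Gata2cKO minus control, computed on log2(TPM + 1) values), with a median of -0.21. Over the 12300 genes tested, 40.5% had a negative value and the median was 0.05. With limma and Benjamini-Hochberg adjustment over all tested genes, 0 of the 6 members were past an adjusted p of 0.05, where 7.47% of all tested genes were past it in either direction and 1.74% in the lower direction (214 genes, or 404 with median-of-ratios scaling). At an unadjusted p under 0.05, Meis1 and Meis2 were lower, 2 of 6 members against 8.17% of all tested genes. In 3 of the 6 members the groups did not overlap, with all Gata2cKO values below all control values, against 10.5% of all tested genes. The authors' deposited table gives 2 of the 6, Meis1 and Meis2, an adjusted p under 0.05 in the lower direction, against 6.58% of its 14366 genes. With so few members, and members that belong to 1 family, these shares describe the set and do not test it.

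Meis1, a cofactor known from haematopoietic stem cells and from limb and kidney mesenchyme, was at 15.4, 17.3 and 17.9 TPM across controls 1 to 3 and at 13.7, 14.5 and 12.8 TPM across Gata2cKO libraries 1 to 3. Every Gata2cKO library was below every control, and control replicate 1 was the nearest to them. The means were 16.9 ± 1.32 and 13.6 ± 0.874 TPM (SD, n = 3 each), 1.24-fold higher in controls. Its log2 fold change of -0.29 had an SE of 0.09 and a 95% confidence interval of -0.50 to -0.07 (limma adjusted p = 0.0976). The authors' deposited table gives Meis1 a log2 fold change of -0.37 with an adjusted p of 0.00185. Without control replicate 1 the log2 fold change was -0.35 and the call was gained (limma adjusted p = 0.0439), while over the other 5 removals of 1 library and the other alternatives the adjusted p stayed above the threshold, up to 0.259.

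Meis2, which marks limb, heart outflow and cranial mesenchyme as well as neural tissue, was at 12.8, 13.1 and 12.7 TPM across controls 1 to 3 and at 10.6, 11.2 and 9.25 TPM across Gata2cKO libraries 1 to 3. The controls lay close together, the Gata2cKO libraries were more spread, and the groups did not overlap. The means were 12.9 ± 0.225 and 10.4 ± 1.02 TPM (SD, n = 3 each), again 1.24-fold higher in controls. Its log2 fold change of -0.29 (SE 0.09, 95% confidence interval -0.50 to -0.08) had the smallest adjusted p of the 6 members (limma adjusted p = 0.0938). In the authors' deposited table the log2 fold change of Meis2 is -0.37 with an adjusted p of 0.000794. When the TPM values were scaled by median of ratios, the value was -0.35 and passed the threshold (limma adjusted p = 0.0453). Over the other alternatives the adjusted p ran up to 0.244.

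Meis3, the most abundant MEIS gene here and known from hindbrain, gut neurons and pancreas, was the most variable member. It was at 24.7, 33.0 and 39.0 TPM across controls 1 to 3 and at 22.6, 27.9 and 24.5 TPM across Gata2cKO libraries 1 to 3. The groups overlapped because control replicate 1 lay among the Gata2cKO libraries. The means were 32.2 ± 7.19 and 25.00 ± 2.65 TPM (SD, n = 3 each), and the coefficient of variation among controls was 22.3%, against 1.75% for Meis2 and 7.85% for Meis1. Its log2 fold change of -0.34 had an SE of 0.16 and a 95% confidence interval of -0.72 to 0.04 (limma adjusted p = 0.229). Without control replicate 1 it was -0.51 and past the threshold (limma adjusted p = 0.0317), and over the other alternatives the adjusted p ran from 0.125 to 0.477. The authors' deposited table gives Meis3 a log2 fold change of -0.43 with an adjusted p of 0.0543. Taken out of the total, mitochondrial transcripts left the overlap in place, with Meis3 at 31.7, 39.5 and 45.5 TPM across controls 1 to 3 and 26.7, 32.1 and 28.4 TPM across Gata2cKO libraries 1 to 3.

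The mix of the MEIS genes was close in the groups. Meis3 made up 51.6% ± 4.70 of the summed TPM of Meis1, Meis2 and Meis3 in controls and 51.0% ± 2.37 in Gata2cKO, Meis1 27.4% ± 1.66 and 27.9% ± 1.08, and Meis2 21.03% ± 3.04 and 21.2% ± 1.39 (SD, n = 3 each). Each difference was smaller than the spread between replicates. The summed TPM of the MEIS genes was 62.0 ± 8.44 in controls and 49.0 ± 3.99 in Gata2cKO, with 52.9 in control replicate 1 and 53.6 in Gata2cKO replicate 2 as the values that overlap. In whole tissue, fewer cells that express these genes and less RNA per cell cannot be told apart.

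**Figure D2:**
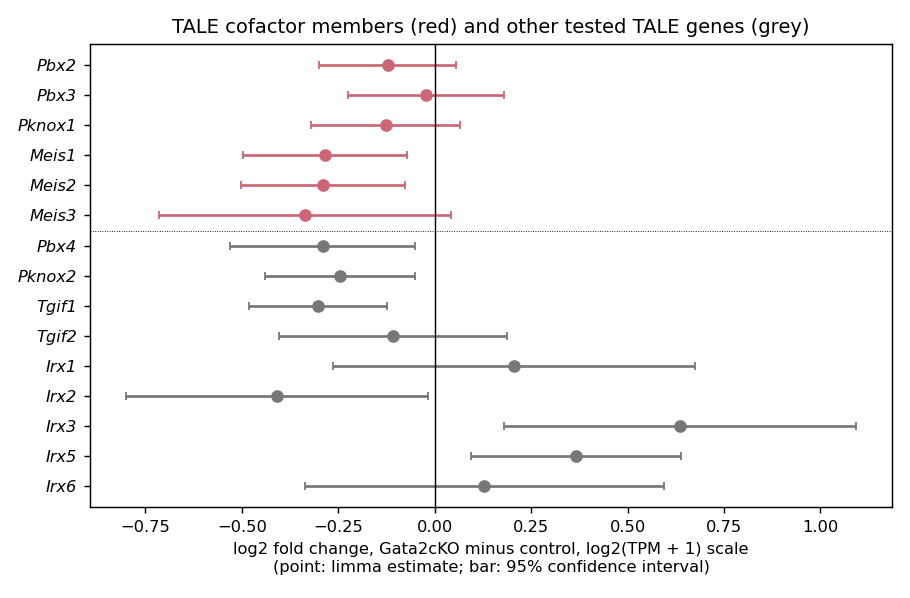
Log2 fold change, Gata2cKO minus control, of log2(TPM + 1) values (horizontal axis) for the 6 members in red and 9 other tested TALE homeobox genes in grey, as limma estimates with 95% confidence intervals. The intervals of Meis1 and Meis2 lie below 0 before adjustment over all genes and those of Pbx2, Pbx3, Pknox1 and Meis3 include 0. Of the grey genes, the intervals of Pbx4, Pknox2, Tgif1 and Irx2 also lie below 0, and those of Irx3 and Irx5 lie above 0. None of the 15 genes passed the adjusted threshold.

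The PBX members and Pknox1 differed less between the groups than the MEIS genes did in these values, and that contrast between genes was not tested. It did not extend to their paralogues Pbx4 and Pknox2, with log2 fold changes of -0.29 and -0.25 (limma adjusted p = 0.123 and 0.114). Both were near the floor, Pbx4 at 1.35 ± 0.190 TPM in controls and 0.920 ± 0.138 TPM in Gata2cKO. Pknox2 was at 1.65 ± 0.0909 and 1.24 ± 0.0649 TPM (SD, n = 3 each). Pbx2 was at 259, 251 and 273 TPM across controls 1 to 3 and at 230, 247 and 242 TPM across Gata2cKO libraries 1 to 3. The groups did not overlap, but the gap between control replicate 2 and Gata2cKO replicate 2 was narrow. Its means were 261 ± 11.2 and 240 ± 8.74 TPM (SD, n = 3 each), with a log2 fold change of -0.12 (SE 0.08, 95% confidence interval -0.30 to 0.05, limma adjusted p = 0.341). The authors' deposited table gives Pbx2 -0.18 with an adjusted p of 0.156. Gpsm3, which shares part of the Pbx2 exons, was at 21.9 ± 2.98 and 25.8 ± 1.66 TPM in control and Gata2cKO libraries (SD, n = 3 each), far below Pbx2.

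Pknox1, whose product binds PBX proteins in many tissues, was at 18.3, 16.9 and 16.5 TPM across controls 1 to 3 and at 16.5, 15.7 and 14.9 TPM across Gata2cKO libraries 1 to 3. Control replicate 3 and Gata2cKO replicate 1 met, so the groups overlapped. It had a log2 fold change of -0.13 (SE 0.08, 95% confidence interval -0.32 to 0.07, limma adjusted p = 0.362). Control replicate 1 had the highest Pknox1 value and the lowest Meis1, Meis3 and Pbx3 values among the controls.

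Pbx3 was at 1.76, 1.86 and 1.94 TPM across controls 1 to 3 and at 1.93, 1.65 and 1.85 TPM across Gata2cKO libraries 1 to 3. The groups overlapped in part, with Gata2cKO replicate 2 below all controls and control replicate 3 just above all Gata2cKO libraries. Pbx3 had a log2 fold change of -0.02 (SE 0.09, 95% confidence interval -0.23 to 0.18, limma adjusted p = 0.894), on a scale that understates change at such low levels.

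**Figure D3:**
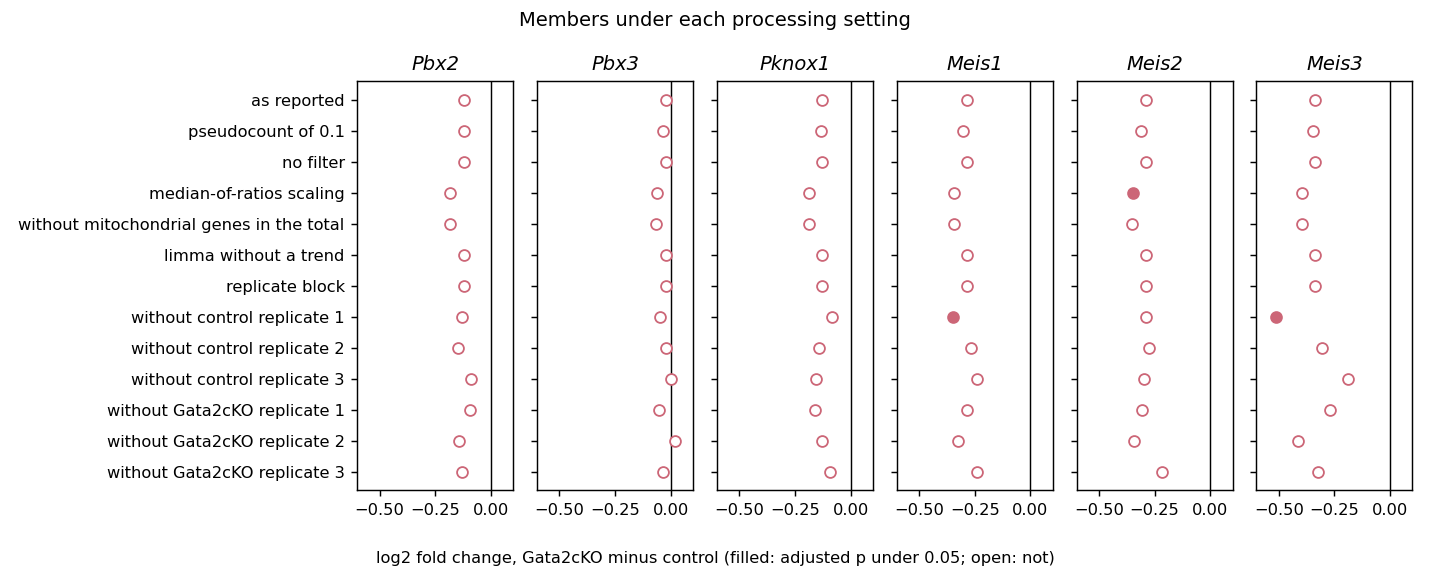
Log2 fold change of Gata2cKO minus control (horizontal axes) for each member under the reported setting and 12 alternatives (rows), filled where the limma adjusted p was under 0.05. Filled points are those of Meis2 with median-of-ratios scaling and of Meis1 and Meis3 without control replicate 1, and Pbx3 is the member whose points reach 0 or above.

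Among the other TALE homeobox genes, 11 of the 12 written down were listed and 10 were tested, with Mkx below the filter. With limma 0 of the 10 passed the threshold in either direction, 6 had a negative log2 fold change and 4 a positive one, and 6 were at an unadjusted p under 0.05 (4 lower and 2 higher), where 27.4% of all tested genes were (8.17% lower and 19.2% higher). The median was -0.09. The 2 higher ones were Irx3, at 18.0 ± 5.74 TPM in controls and 27.7 ± 2.29 TPM in Gata2cKO, and Irx5, at 0.884 ± 0.180 and 1.43 ± 0.262 TPM (SD, n = 3 each). In these iroquois homeobox genes the groups did not overlap (limma adjusted p = 0.0887 and 0.0956), and the share of all genes that did so upward was not computed. The 4 lower ones were Tgif1, Pknox2, Pbx4 and Irx2 (limma adjusted p = 0.0565, 0.114, 0.123 and 0.168). In Tgif1, Pknox2 and Pbx4 the groups did not overlap, against 10.5% of all tested genes in the lower direction, and in Irx2 they did. The smallest p was that of Tgif1, which encodes a TALE repressor that competes for MEIS-type sites, at 86.7, 81.9 and 86.1 TPM across controls 1 to 3 and at 70.1, 71.6 and 64.4 TPM across Gata2cKO libraries 1 to 3. The groups of Tgif1 did not overlap. Tgif1 had a log2 fold change of -0.30 (SE 0.08; limma adjusted p = 0.0565), past the threshold with median-of-ratios scaling and with mitochondrial genes left out of the total. The authors' deposited table gives Tgif1 an adjusted p of 0.00226 and Pknox2, the paralogue of Pknox1, an adjusted p of 0.000564, both lower.

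The Hox genes, whose products pair with the TALE cofactors, are the partners for which the cofactors are named. Of 35 tested Hox genes 13 fell and 1 rose by limma, where 1.74% of all tested genes fell and 5.73% rose. The median log2 fold change of the Hox genes was -0.30. By cluster, 6 of 7 tested HoxC genes, 5 of 11 HoxA genes, 1 of 8 HoxB genes and 1 of 9 HoxD genes fell. By position, 9 of 22 tested genes of groups 1 to 8, which pair mainly with PBX proteins, fell and 1 rose, and 4 of 13 genes of groups 9 to 13, which can also pair with MEIS proteins, fell. Over the 6 removals of 1 library 7 to 14 Hox genes fell, with 7 when control replicate 2, control replicate 3 or Gata2cKO replicate 1 was left out and 8 when Gata2cKO replicate 3 was. By the smallest adjusted p the leading genes were Hoxc9, Hoxc6, Hoxa9, Hoxc4, Hoxc5 and Hoxc8. Of these, Hoxc9 fell from 44.4 ± 1.24 to 17.2 ± 1.81 TPM (SD, n = 3 each), with a limma adjusted p of 0.00173. Hoxc4 fell from 33.4 ± 5.03 to 16.5 ± 0.646 TPM (limma adjusted p = 0.00971), and Hoxc5 from 10.9 ± 1.10 to 5.84 ± 0.482 TPM (limma adjusted p = 0.0108). All of these leading genes kept their calls in the 6 removals. At an adjusted p under 0.05, the authors' deposited table gives 16 of the 35 Hox genes as lower and 1 as higher. In the lower direction the share of all 14366 genes deposited was 6.58%. The summed TPM of all listed Hox genes was 2890 ± 212 in controls and 2264 ± 186 in Gata2cKO (SD, n = 3 each). Set against the summed MEIS genes, it was 44.6 to 50.6 times as high in control libraries and 46.1 to 46.2 times as high in Gata2cKO libraries, so that the ratio of Hox to MEIS transcripts overlapped between the groups. The pooled sum hides unlike clusters. HoxA summed to 925 to 1212 TPM in controls and 627 to 805 TPM in Gata2cKO, and HoxC to 557 to 646 and 276 to 345 TPM. HoxB overlapped, at 417 to 457 and 391 to 494 TPM, and HoxD was higher, at 731 to 789 and 800 to 834 TPM.

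Of 7 genes for proteins known to bind PBX or MEIS proteins, 0 passed in limma, and 3 were lower at an unadjusted p under 0.05. The smallest p was that of Crtc2, a coactivator of CREB that MEIS1 can recruit, at 58.7 ± 5.91 TPM in controls and 47.3 ± 4.77 TPM in Gata2cKO (SD, n = 3 each; log2 fold change -0.31, limma adjusted p = 0.116). Pbxip1, which encodes an inhibitor of PBX binding to DNA, was at 40.2 ± 1.13 and 44.0 ± 4.87 TPM (limma adjusted p = 0.444).

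Likeness of pattern was measured for Meis2, the member with the smallest p, as the root mean square difference of log2(TPM + 1) over the 6 libraries after each gene was centred on its own mean. The 3 most alike of 12299 other tested genes were Slc25a37, a mitochondrial iron importer gene, with a difference of 0.027, Zeb1, a zinc finger homeobox repressor gene of mesenchyme, with 0.032, and Gga3, a gene of vesicle sorting, with 0.034. Zeb1 was at 7.44, 7.51 and 7.01 TPM across controls 1 to 3 and at 5.91, 5.99 and 5.01 TPM across Gata2cKO libraries 1 to 3. Among the members Meis1 was the most like Meis2, with a difference of 0.072, at rank 154.

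Markers of several cell types differed between the same libraries. By limma 5.73% of all tested genes rose and 1.74% fell, which is 705 and 214 genes. With median-of-ratios scaling 489 rose and 404 fell, so counts in each direction depend on the scaling. The counts below describe each short list and do not test it. Of 12 tested markers of duct epithelium 4 rose and 0 fell, and their summed level was 1156 to 1292 TPM in controls and 1566 to 1590 TPM in Gata2cKO. Of 6 smooth muscle markers 3 fell and 0 rose, with sums of 1005 to 1114 and 777 to 856 TPM. Of 8 endothelial markers 3 rose and 0 fell, with sums of 137 to 158 and 187 to 197 TPM. The ratio was larger for mast cell markers, of which 3 of 6 tested rose and 0 fell, with sums of 101 to 142 TPM in controls and 277 to 301 TPM in Gata2cKO. Of 6 mesothelial markers 4 rose and 0 fell, with sums of 353 to 456 and 572 to 668 TPM. Krt19 is counted in both the duct epithelium and the mesothelial list. Of 10 kidney markers written down 4 were listed and tested and all 4 rose, with sums of 76.6 to 83.5 and 138 to 139.7 TPM. Podxl was the most abundant of them, and the other 6 were not listed, so kidney cells are poorly covered by this list. Of 8 tested macrophage markers 2 rose and 0 fell, with sums of 360 to 446 and 473 to 528 TPM, and of 5 tested markers of neurons and glia 2 rose and 0 fell, with sums of 8.89 to 13.9 and 15.5 to 23.3 TPM. The 12 mesenchymal markers overlapped in their sum, at 8634 to 10722 TPM in controls and 9754 to 12171 TPM in Gata2cKO, with 3 that fell and 1 that rose. No listed marker of these lists was at 0 in every library. The part of these differences in the values of Meis1, Meis2 and the other members was not tested.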

How the data were processed

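RNA was isolated with the PicoPure kit, captured with poly-T beads and primed with random hexamers, per the labels' protocols. The authors deposited 1 gene table. Its unit is taken from the values as TPM made by the authors, since each library sums to between 997351 and 998844. The table also holds the authors' log2 fold changes, which are of Gata2cKO over control, and the authors' p-values with an adjusted p. STAR 2.7.11a, DESeq2, DESeq and GRCm38 appear, without roles, per the submitters' processing notes. The sources used here do not give the quantifier or gene filter. TPM keeps no depth, so no counting interval is given.

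Genes that reached 1 TPM in 3 or more of the 6 libraries were fitted as log2(TPM + 1) with limma 3.58.1 (trend, moderated variances) in R 4.3.3, with 1 term for the group. P-values are two-sided, adjusted over 12300 genes by Benjamini-Hochberg, with a threshold of 0.05. The fit was tested on simulated data. Exact permutation of 3 against 3 samples could not go below 0.1 and was not used. Exons and transcripts are from GENCODE release 21 (GRCm38), matched by identifier for 14345 of 14366 genes. The members, lists and named-gene rule were chosen with earlier results of these data known. Named are the 6 members, Gata2, the leading listed genes by adjusted p (up to 6 past the threshold, else the smallest p) and the 3 genes nearest the member with the smallest p. Pbxip1, Pbx4, Pknox2, Mkx, Irx2, Irx3, Irx5, Stra6, Gpsm3, Podxl, Krt19 and the genes named for single alternatives were added after their values were seen. One gene of the list of other TALE genes is counted but not reported here. Alternatives changed the pseudocount, filter, scaling, trend, replicate block and libraries.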

Additional observations from a re-analysis of the deposited data

How the results depend on the processing

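The count of all genes past the threshold was 919, with 705 higher and 214 lower. The split was 489 higher and 404 lower with median-of-ratios scaling, which moved the median log2 fold change of all tested genes from 0.05 to -0.004, and 436 against 282 when mitochondrial genes were left out of the total. The count ran from 116 without Gata2cKO replicate 1 to 1539 without control replicate 1, where each removal leaves fewer samples.

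Of the 6 members, the count past the threshold was 1 with median-of-ratios scaling (Meis2) and 0 to 2 over the removals of 1 library, 2 without control replicate 1. Of the other TALE genes it was 1 with median-of-ratios scaling and 1 without mitochondrial genes in the total (Tgif1 in both), 1 with the replicate block (Irx3), and 0 to 1 over the removals. Hox genes ranged from 7 to 16 over the removals, retinoid genes from 0 to 4, and partner genes stayed at 0. The cause of these shifts was not tested. Of the members, 5 kept a negative log2 fold change under all 12 alternatives. Pbx3, with values of -0.054 to 0.020 over the removals, reversed to 0.00048 without control replicate 3 and to 0.020 without Gata2cKO replicate 2.

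Whether the replicate numbers pair the samples cannot be decided from so few libraries. The correlations of same-numbered deviations across genes were 0.25, -0.073 and 0.038, and those of differently numbered ones ran from -0.28 to 0.21. With the replicate block 774 genes passed in all and 0 members did (Meis1 adjusted p = 0.141, Meis2 0.125, Meis3 0.140 by limma).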

Other observations

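Genes of retinoid handling were also read from the fit, since retinoic acid is known to induce MEIS genes in limb and in cultured cells. Of 16 tested genes 2 rose and 0 fell by limma, with a median log2 fold change of 0.13, where 5.73% of all tested genes rose. With median-of-ratios scaling, and with mitochondrial genes left out of the total, 1 rose and 1 fell, and without control replicate 1 it was 3 and 1. The gene that fell under these settings was Stra6, a membrane receptor for retinol uptake, at 13.8 ± 0.982 TPM in controls and 10.04 ± 1.31 TPM in Gata2cKO (SD, n = 3 each), with a limma adjusted p of 0.0564 as reported. The authors' deposited table gives 4 of the retinoid genes as higher and 2 as lower at an adjusted p under 0.05, with Stra6 at 5.2e-05. In the lower direction the share of its 14366 genes was 6.58%. The share in the higher direction was not computed, so the count of 4 has no such value beside it. Aldh1a3, a retinaldehyde dehydrogenase that makes retinoic acid, rose from 7.37 ± 1.38 to 13.0 ± 0.748 TPM (SD, n = 3 each), with a limma adjusted p of 0.0178. Rdh10, which oxidizes retinol, rose from 31.9 ± 1.55 to 40.7 ± 1.92 TPM (limma adjusted p = 0.0439). Rdh10 lost its call with median-of-ratios scaling, with mitochondrial genes left out of the total and with the replicate block, under which Aldh1a3, Aldh1a1 and Rarg rose. Neither passed in 5 of the 6 removals of 1 library, all but that of control replicate 1, with limma adjusted p up to 0.0728 for Aldh1a3 (without Gata2cKO replicate 3) and 0.172 for Rdh10 (without Gata2cKO replicate 1). The levels of the MEIS genes and of these genes come from the same 6 libraries, and no relation between them was tested.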
